A study of Mus musculus with 78 samples.

Results

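Parental V6.5 mouse embryonic stem cells (mESCs) were compared with TRIM28-FKBP mESCs, the V6.5 derivative in which the study's degradation experiments were carried out, before any degrader was given. The comparison took the 3 untreated parental RNA-seq libraries and the 3 RNA-seq libraries of the tagged line that received DMSO alone, 6 of the 30 RNA-seq libraries and of the 78 samples of the series, and covered every gene in the tables. The study used the tagged line to remove the TRIM28 protein with dTAG-13 and to follow transcription of endogenous retroviruses (ERVs) and of the genes near super-enhancers. According to the study, tetraploid aggregation and directed differentiation showed that the tagged line kept its pluripotency. The study also describes the gene expression of the tagged line as similar to that of its parent. The question here was how far the starting line, as grown and collected, already differed from its parent.

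V6.5 is a mESC line. In the tagged line an mRuby2-P2A-FKBP cassette had been knocked in at the N terminus of Trim28 with CRISPR-Cas9, cells had been sorted for mRuby2 and single colonies had been picked, so the line stands for few cells of origin. The parental cells had no treatment and were grown in serum and LIF on gelatin with a confluent layer of irradiated CD1 mouse embryonic fibroblasts (MEFs). The tagged cells were expanded on irradiated MEFs in serum and LIF, were depleted of MEFs 2 times by attachment to gelatin, were kept on gelatin with 2000 U/ml LIF and received 0.05% DMSO for 24 h. The methods of the study describe MEF depletion for its mESCs before RNA-seq without naming lines, whereas the growth notes of the parental libraries name the feeder layer and no depletion, so whether the parental cells were depleted is not certain. The amount of LIF in the parental medium is given without a volume. Clone, tag and DMSO, and any difference in feeder layer or LIF, therefore change together between these 2 groups and cannot be told apart. The study calls the replicates of the tagged line biological, but nothing says for either line that the 3 libraries came from separate cultures. The p-values therefore measure only the spread between libraries of the same group, which may be technical. That spread was estimated from 9 libraries, these 6 and 3 of neural progenitor cells, so it is not that of the 2 lines alone.

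TRIM28 is a corepressor that KRAB zinc-finger proteins bring to ERVs and to imprinting control regions, where it gathers the H3K9 methyltransferase SETDB1, HP1 proteins and DNA methylation. The FKBP tag is a mutant FKBP12 domain to which dTAG-13 binds, and dTAG-13 joins the tagged protein to a ubiquitin ligase. mESCs in serum and LIF are a mixture of states. Naive cells express Klf4, Esrrb, Tbx3 and Nr0b1 strongly, cells closer to the postimplantation epiblast express Pou3f1 and Fgf5, and rare cells pass through a state that resembles the embryo at its first cleavage, marked by Zscan4. In bulk RNA, fewer cells of one state and less RNA per cell cannot be told apart.

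Values were TPM, the share of transcripts corrected for gene length, from polyadenylated RNA. Differences are log2(TPM + 0.5) of the parental minus the tagged line, which understates the change of low genes, with the adjusted p of limma (Benjamini-Hochberg over all genes tested). A gene was called higher or lower in the parental line when the adjusted p was under 0.05 and the difference exceeded 2-fold. Of 17458 genes tested, 2.25% were called higher and 9.15% lower, so 80.3% of the called genes were lower in the parental line. With each library centred on its median gene, which moves the median difference of all genes from −0.09 to 0.10, 624 genes were called higher and 1161 lower. At any size of difference 25% of the genes were higher and 41% lower by the adjusted p, and the groups did not overlap, parental above, for 27.2% and, parental below, for 43.5% of the genes. A count of list members is therefore to be read against 2.25% and 9.15%, not against none. Genes at 1 TPM or more numbered 14720 to 14748 in the parental libraries and 15612 to 15831 in the tagged libraries. Of the genes called lower, 742 had a parental mean under 1 TPM, and of those called higher, 112 had a tagged mean under 1 TPM. Among genes at 10 TPM or more in the higher line, 187 were called higher and 493 lower. Read depth relative to the other libraries was 0.780 to 1.46 in the parental and 0.811 to 1.05 in the tagged libraries, and correlations between libraries of the same group were 0.994 to 0.996.

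**Figure D1:**
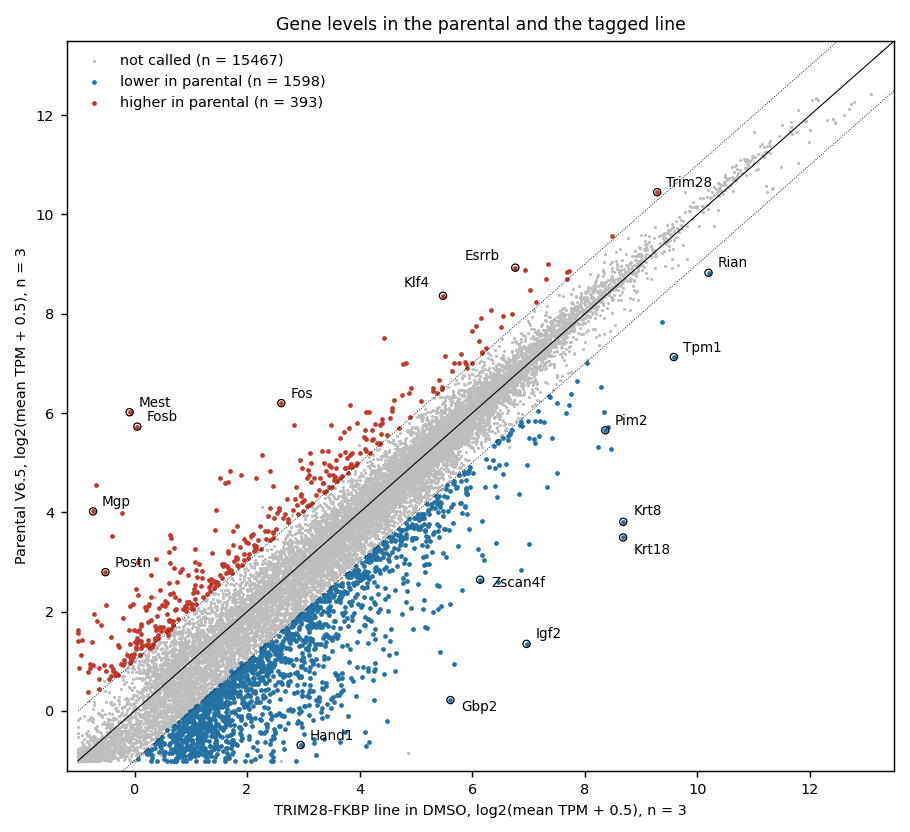
Mean TPM of each tested gene in the tagged line (x axis, 3 libraries) and in the parental line (y axis, 3 libraries), both as log2(mean TPM + 0.5), with genes called higher or lower in the parental line coloured and some named. The solid line marks equal levels and the dotted lines mark 2-fold differences. Mest, Fosb and Mgp stand far above the diagonal, and Igf2, Gbp2, Krt8 and Krt18 far below it.

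The guide that cut Trim28 for the knock-in is shown because it fixes where the tag enters the gene. It is written 5′ to 3′ with the start codon in capitals, and then as the genomic site with the NGG PAM in capitals.
Trim28 guide: cgtgtgaATGgcggcctcgg
Trim28 site with PAM: cgtgtgaatggcggcctcggCGG
The 20 bases matched 1 site on chromosome 7 of GRCm38 (mm10), at 13024712 to 13024731 on the plus strand, in exon 1 of Trim28-201, where the site spans the end of the 5′ leader and the start of the coding sequence. The start codon is at 13024719 to 13024721, and the expected cut lies after base 13024728, which is 7 bases past the start codon.

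Trim28 itself read 1418, 1389 and 1387 TPM in the parental libraries and 622, 622 and 626 TPM in the tagged libraries, with no overlap. Its neighbours did not share that difference. Distances were measured from the annotated start of Trim28 at 12999114, which is upstream of the cut site. Of 37 gene models that start within 250 kb of that position, 15 were tested, and Trim28 was the 1 member called higher. Zscan22, a SCAN-domain zinc-finger gene, was the 1 neighbour called lower, at 6.20, 5.70 and 5.99 TPM in the parental and 14.8, 14.9 and 15.3 TPM in the tagged libraries (log2 −1.26, SE 0.04, limma adjusted p = 2.26e-08). Under 2-fold, 4 neighbours were higher and 7 lower by the adjusted p. Zbtb45 differed by 0.11, and the zinc-finger genes Zfp329, Zfp324, Zfp128, Zfp446 and Mzf1 by −0.54 to −0.73. Chmp2a (−0.10), Ube2m (−0.03) and Zfp110 (−0.16) changed sign when each library was centred on its median gene. The cassette sequence is not part of the mouse annotation, and how reads of tagged transcripts were assigned was not tested.

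Few partners of TRIM28 differed by more than 2-fold. Among 31 tested genes of its silencing machinery, Trim28 was called higher and Zfp809, a KRAB zinc-finger gene whose protein brings TRIM28 to the primer binding site of murine leukaemia retroviruses, was called lower, and the median was −0.05. By the adjusted p at any size 10 of the 31 were higher and 13 lower, where 25% and 41% of all genes were. Zfp809 read 29.9, 29.1 and 30.6 TPM in the parental and 74.3, 75.6 and 83.3 TPM in the tagged libraries (log2 −1.36, limma adjusted p = 4.88e-08). Setdb1 differed by −0.23, Dnmt1, the maintenance methyltransferase, by −0.03, and Zfp57, which binds methylated imprinting control regions, by −0.47. Among 20 other ERV silencers 0 were called higher and 1 lower, with a median of −0.03. The member called was Pphln1, the periphilin subunit of the HUSH complex, at 40.3, 43.2 and 44.5 against 87.8, 93.1 and 85.2 TPM (log2 −1.05, limma adjusted p = 9.75e-06). Of 16 DNA methylation enzymes and related genes 0 were called higher and 2 lower, the demethylation genes Tet3 (−1.42) and Gadd45b (−1.26), with a median of −0.10.

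Transcripts of the naive state were mostly more abundant in the parental line. Of 19 genes tested 11 were called higher in the parental line (57.9%, against 2.25% of all genes) and 1 lower, with a median of 1.22. Klf4, a LIF target and core naive factor, read 326, 329 and 331 TPM in the parental and 43.0, 45.5 and 43.9 TPM in the tagged libraries. Esrrb, an orphan nuclear receptor of the naive network, read 500, 473 and 488 against 110, 106 and 108 TPM (log2 2.16, SE 0.03, limma adjusted p = 4.32e-10). Klf2 read 476, 467 and 463 against 117, 127 and 120 TPM (log2 1.95), with no overlap for any of these genes. Nr0b1, which encodes DAX1, differed by 2.18, Nr5a2, a receptor that drives Pou5f1, by 1.90, and Tcl1, an AKT coactivator, by 1.86. Tdh, threonine dehydrogenase of mESC metabolism, differed by 1.65, the T-box gene Tbx3 by 1.50, Zfp42 (the marker Rex1) by 1.45, Klf5 by 1.22 and Prdm14 by 1.15. Klf2 and Zfp42 lie on chromosome 8, which is described further on.

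The list did not move as a block. Gbx2, a homeobox gene and LIF target that sustains self-renewal, went the other way, at 20.6, 21.3 and 21.9 TPM in the parental and 61.2, 60.9 and 54.8 TPM in the tagged libraries (log2 −1.45, limma adjusted p = 1.26e-08). Dppa3 (Stella), a maternal-effect gene, read 45.3, 43.9 and 47.5 against 80.4, 73.4 and 72.4 TPM, a difference of −0.72 that did not reach 2-fold. Among the members not called, Nanog differed by 0.98, just under 2-fold, Tet2 differed by 0.75, Tfcp2l1 by 0.71, Sox15 by 0.66, Fbxo15 by 0.39 and Dppa5a by 0.22. In the general pluripotency list of 18 genes 1 was called higher and 0 lower, with a median of 0.12. That gene was Sox2, the partner of OCT4 on DNA, at 419, 413 and 413 against 212, 206 and 195 TPM (log2 1.02, limma adjusted p = 9.51e-09).

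**Figure D2:**
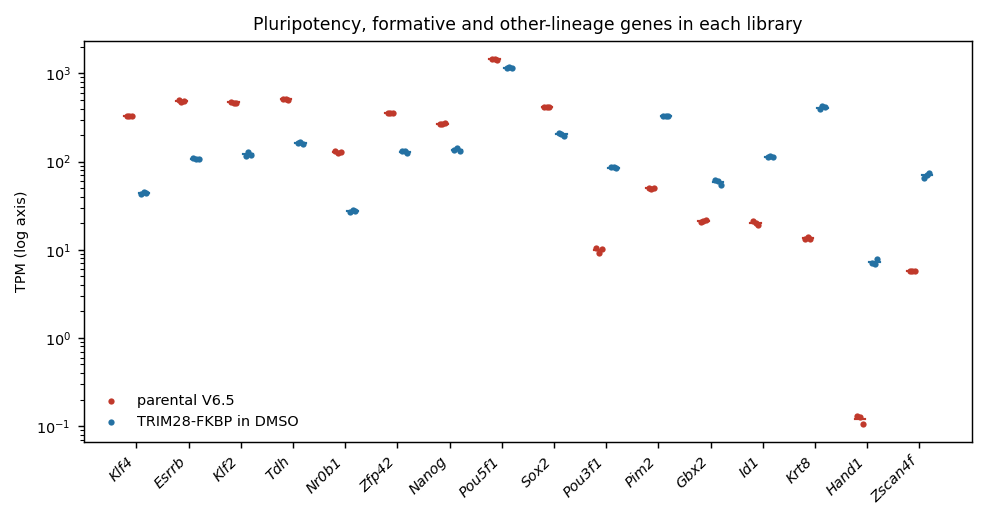
TPM in each library (log axis, 3 parental points in red and 3 tagged points in blue per gene) for pluripotency, formative and other-lineage genes, with a bar at each group's mean. The parental points lie above the tagged points for Klf4, Esrrb and Nr0b1 and below them for Gbx2, Pou3f1 and Pim2.

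Genes of the formative and primed epiblast went both ways, with the calls in the lower direction. Of 19 tested 0 were called higher and 5 lower (26.3%, against 9.15% of all genes), with a median of −0.49, and by the adjusted p at any size 7 were higher and 10 lower. Pou3f1 (OCT6), a POU factor of the epiblast, read 10.5, 9.09 and 10.3 TPM in the parental and 85.8, 86.1 and 85.0 TPM in the tagged libraries (log2 −3.04, SE 0.05, limma adjusted p = 6.07e-10). Pim2, an X-linked kinase gene, read 50.4, 48.6 and 50.5 against 328, 332 and 327 TPM (log2 −2.71). N-cadherin (Cdh2) differed by −1.64, Sall2 by −1.59 and Sox3 by −1.18. The classical markers Fgf5 and Otx2 did not reach 2-fold and went opposite ways. Fgf5 was at 0.792, 1.08 and 0.917 against 1.80, 1.79 and 1.63 TPM, and Otx2 was at 18.3, 19.2 and 19.5 against 13.8, 13.6 and 14.1 TPM. With each library centred on its median gene, 0 were called higher and 4 lower.

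The signalling lists split within themselves. In the LIF-STAT3 list of 18 genes 2 were called higher and 3 lower, with a median of 0.33. Klf4 and Junb (1.20) were higher, whereas Gbx2, the kinase gene Pim1 (82.6, 83.0 and 83.7 against 219, 224 and 207 TPM, log2 −1.38) and Lif itself (−1.43) were lower. Stat3 differed by 0.72 and its feedback inhibitor Socs3 by 0.54, neither reaching 2-fold. In the FGF-ERK list of 18 genes 1 was called higher and 3 lower, with a median of 0.03. Egr1, an immediate target of ERK, was higher (1.84), and the receptor gene Fgfr2 (−1.74), Phlda1 (−1.73) and Ier3 (−1.03) were lower.

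Several ligands and targets of the Wnt pathway were lower in the parental line. Of 22 tested genes 1 was called higher and 5 lower (22.7%), with a median of −0.19. Wnt7b (−3.33), Wnt3 (−2.84) and Wnt6 (−1.59) encode ligands, and T and Sp5 are targets. Wnt3, which starts the primitive streak in the embryo, was near 0 in the parental line, at 0.0673, 0.0971 and 0.144 against 3.72, 3.74 and 3.99 TPM. T (Brachyury) read 0.307, 0.513 and 0.592 against 3.83, 4.78 and 5.85 TPM, and Sp5 read 2.05, 1.61 and 2.25 against 10.9, 12.8 and 13.7 TPM. The receptor gene Fzd5 was the member called higher, at 76.5, 76.1 and 76.0 against 24.1, 23.3 and 24.6 TPM (log2 1.65, limma adjusted p = 3.31e-09). Axin2, the usual readout of the pathway, differed by −0.08.

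In the BMP and Nodal list of 22 genes 0 were called higher and 5 lower (22.7%), with a median of −0.34. Id1, Id2 and Id3 encode inhibitors of basic helix-loop-helix factors and are direct targets of BMP-SMAD signalling. Id1 read 21.1, 20.2 and 18.8 TPM in the parental and 114, 114 and 113 TPM in the tagged libraries (log2 −2.48, SE 0.05, limma adjusted p = 8.90e-10), Id2 differed by −1.77 and Id3 by −1.22. Lefty1, the Nodal antagonist, read 67.4, 61.4 and 63.1 against 195, 208 and 207 TPM (log2 −1.66). None of the 5 overlapped between the lines.

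Among markers of later lineages, the trophoblast list had the highest share of members lower in the parental line. Of 16 trophoblast genes tested 0 were called higher and 12 lower (75%, against 9.15% of all genes), with a median of −1.50. Krt8 and Krt18, the keratin pair of simple epithelia, were among the most changed transcripts of all. Krt8 read 13.4, 13.9 and 13.3 TPM in the parental and 395, 422 and 415 TPM in the tagged libraries (log2 −4.87, SE 0.04, limma adjusted p = 8.27e-12). Krt18 read 10.1, 10.9 and 11.3 against 401, 422 and 407 TPM (log2 −5.19, SE 0.09, limma adjusted p = 4.86e-10). Krt7, a further simple-epithelial keratin, read 0.433, 0.469 and 0.396 against 12.2, 13.6 and 14.5 TPM (log2 −3.90). The trophoblast regulators Hand1 (−3.64), Gata3 (−2.59), Gata2 (−1.47), Cdx2 (−1.32), Dlx3 (−1.24) and Tfap2a (−1.16) were lower, as were the placental genes Plac1 (−2.55), Esx1 (−1.90) and Ascl2 (−1.52). These regulators were low in both lines. Gata3 was at 3.34, 4.02 and 3.41 TPM in the tagged line, where Krt8 was near 400, so the abundant part of the list was the keratins.

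In the mesoderm and primitive streak list of 15 tested genes 0 were called higher and 8 lower (53.3%), with a median of −1.03. Hand1, a basic helix-loop-helix factor of extraembryonic mesoderm, heart and trophoblast, read 0.130, 0.127 and 0.107 TPM in the parental and 7.00, 6.89 and 7.83 TPM in the tagged libraries (limma adjusted p = 4.21e-09). Wnt3, T, Hoxb1 (−1.97), Cdx2, Fgf8 (−1.30), Msx2 (−1.22) and Kdr (−1.03) were the others. Krt8, Krt18, Hand1, Cdx2, Ascl2, Wnt3, T, Hoxb1 and Cdh2 each belong to more than 1 list, so the lists are not separate observations. In the endoderm list of 24 genes 1 was called higher and 4 lower, with a median of −0.12, and the members lower were the keratins Krt8 and Krt18 and the basement membrane collagens Col4a1 (−1.11) and Col4a2 (−1.36). The endoderm regulators Gata4 (−0.63), Gata6 (−0.16) and Sox17 (−0.75) were not called, and Cubn, an endocytic receptor gene, was higher by 1.33. In the neural list of 19 genes 1 was called higher and 2 lower, with a median of −0.16. Nes (nestin) read 8.99, 9.70 and 9.79 against 52.2, 52.7 and 54.2 TPM (log2 −2.42), Cdh2 was the other gene lower, and Olig2 was higher (1.86). Of 20 tested Hox genes 1 was called higher (Hoxc8, 1.20) and 2 lower (Hoxb1 among them), with a median of −0.25.

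Zscan4 and its companions, the transcripts of the rare 2-cell-like state, were low in the parental line throughout. Of 24 genes tested 23 were called lower (95.8%) and 0 higher, with a median of −3.08. Zscan4d, a SCAN-domain gene of that state, read 2.66, 2.62 and 2.74 TPM in the parental and 35.0, 36.4 and 37.1 TPM in the tagged libraries (log2 −3.53, SE 0.06, limma adjusted p = 5.87e-10). Zscan4f read 5.78, 5.73 and 5.73 against 65.5, 71.0 and 73.5 TPM, and the 6 Zscan4 genes differed by −3.35 to −3.53. Pramef25 differed by −3.53, Gm5662 by −3.49 and Tcstv3 by −3.18. Duxf3, the Dux factor that switches this programme on, was at 0.113, 0.180 and 0.135 against 2.17, 2.45 and 1.95 TPM. Zfp352, also of this programme, read 0.234, 0.0698 and 0.166 against 2.35, 2.81 and 2.63 TPM. The member not called was Eif1a (0.19), a translation factor gene that every cell uses. The Zscan4, Tcstv and Usp17l genes have near-identical copies, so the split of reads among them is uncertain and the 23 calls are not separate observations. Germline genes showed a smaller difference, with 0 of 22 called higher and 7 lower (31.8%) and a median of −0.26. Among those lower, Tex13b (−2.85), Rhox9 (−2.83), Rhox6 (−2.63), Taf7l (−2.20) and Rhox5 (−1.61) are on the X chromosome, and Sycp2 (−1.30) and Sycp1 (−1.04) encode parts of the synaptonemal complex.

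Imprinted genes, whose allele-specific expression depends in part on TRIM28 and ZFP57, included the gene with the largest rise and the gene with the largest fall among called genes at 5 TPM or more. Of 50 tested 2 were called higher and 15 lower (30%, against 9.15% of all genes), with a median of −0.30. Mest, a paternally expressed gene, read 65.4, 64.3 and 63.1 TPM in the parental and 0.307, 0.534 and 0.484 TPM in the tagged libraries (log2 6.11, SE 0.10). Igf2, the paternally expressed growth factor, read 2.16, 2.04 and 1.95 against 122, 126 and 125 TPM (log2 −5.62, SE 0.04). H19, the maternally expressed RNA that shares an imprinting control region with Igf2, read 6.56, 5.72 and 5.53 against 6.85, 8.05 and 6.99 TPM (log2 −0.28, limma adjusted p = 0.0995). The groups did not overlap for H19, but it did not pass the test, whereas Igf2 beside it was called. Nnat, a paternally expressed gene, was the other member higher, at 11.2, 10.1 and 10.6 against 0.760, 1.13 and 1.29 TPM (log2 2.85, limma adjusted p = 6.20e-08).

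Several imprinted clusters were lower as neighbours. Peg10, a gene derived from a retrotransposon, read 52.3, 51.6 and 53.3 TPM in the parental and 344, 344 and 331 TPM in the tagged libraries (log2 −2.68, limma adjusted p = 1.76e-11), and Sgce next to it differed by −1.87. In the Dlk1-Dio3 region, Meg3 read 231, 228 and 223 against 617, 571 and 800 TPM (log2 −1.53), Rian read 456, 438 and 467 against 1151, 1096 and 1275 TPM (log2 −1.37), Mirg differed by −1.69 and Dlk1 by −1.79. Meg3, Rian and Mirg are maternally expressed non-coding RNAs and Dlk1 is paternally expressed, so both parental classes of that region were lower. In the Prader-Willi region Magel2 (−1.94), Peg12 (−1.62), Mkrn3 (−1.10) and Ndn (−1.06) were lower, and Snurf, with 20.7, 6.45 and 17.3 against 2.86, 11.7 and 4.74 TPM, overlapped between the lines. Sfmbt2 (11.8, 12.8 and 12.1 against 58.3, 60.9 and 63.2 TPM, log2 −2.27), Plagl1 (−1.63), Ascl2 and the cell cycle inhibitor gene Cdkn1c (−1.51) were also lower. Peg3 differed by −0.97, under the 2-fold threshold. Allele-specific expression and DNA methylation were not measured.

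Among the 12 genes with the largest rise and the 12 with the largest fall, several fell outside these lists. Gbp2, an interferon-inducible guanylate-binding protein gene, read 0.609, 0.723 and 0.660 TPM in the parental and 47.8, 51.4 and 46.1 TPM in the tagged libraries (log2 −5.39, SE 0.08, limma adjusted p = 4.32e-10), and its neighbour Gbp2b differed by −4.79. Acta1, skeletal muscle actin, read 1.19, 1.46 and 1.63 against 51.1, 50.3 and 51.3 TPM (log2 −4.74), and Synpo2l, a gene of striated muscle, differed by −4.51. The predicted genes 3830417A13Rik (−4.81), Gm49416 (−4.65), Gm21542 (−4.28), Gm8332 (−4.25) and AI662270 (−4.15) completed the falls with Igf2, Krt8 and Krt18. Gm49416 was the least even of them, at 10.6, 29.8 and 25.6 TPM in the tagged line. By absolute TPM the falls also included Tpm1, an actin-binding tropomyosin (140, 140 and 138 against 742, 762 and 794 TPM, log2 −2.45), and Klhl13, an X-linked ubiquitin ligase adaptor (37.9, 37.3 and 39.5 against 358, 359 and 339 TPM, log2 −3.19).

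Of the other large rises, 4 were in genes of the extracellular matrix. Mgp, matrix Gla protein, read 16.4, 13.7 and 17.0 TPM in the parental and 0.230, 0 and 0.0706 TPM in the tagged libraries (log2 4.77, limma adjusted p = 7.34e-09). Tnc, tenascin C, read 26.2, 25.1 and 25.1 against 2.71, 2.19 and 2.24 TPM (log2 3.18), and Fbln2, fibulin 2, read 28.2, 28.2 and 27.6 against 2.69, 2.66 and 2.85 TPM (log2 3.14). Ndufa4l2, a HIF target, differed by 3.00. Gm26083, a small Cajal body RNA gene (5.24), Gm28036 (4.24), Rpph1, the RNA of RNase P (3.98), and mt-Te, a mitochondrial tRNA gene (3.10), were the others beside Postn (3.31) and Fos (3.60). Gm28036 was the least even of the rises, at 7.02, 17.1 and 22.0 TPM in the parental line. By absolute TPM the rises after Trim28 were Chchd10 (760, 753 and 757 against 364, 378 and 334 TPM), a mitochondrial intermembrane gene, the naive genes Esrrb, Tdh, Klf2 and Klf4, the uridine phosphorylase gene Upp1 (1.15) and Trh, the thyrotropin-releasing hormone gene (415, 410 and 414 against 151, 165 and 158 TPM).

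Most tested fibroblast markers were higher in the parental line. Of 24 feeder fibroblast markers tested 13 were called higher (54.2%, against 2.25%) and 2 lower, with a median of 1.22. Col1a2, a fibrillar collagen chain of fibroblasts, read 23.4, 23.9 and 23.3 TPM in the parental and 2.93, 2.42 and 2.34 TPM in the tagged libraries (log2 2.98, SE 0.16, limma adjusted p = 2.56e-07). Col3a1 read 7.33, 7.67 and 7.57 against 0.524, 0.503 and 0.589 TPM (log2 2.95), and Postn, periostin, read 6.80, 6.34 and 6.19 against 0.240, 0.141 and 0.217 TPM. Mmp3, a stromal metalloproteinase, read 2.93, 2.45 and 2.08 TPM in the parental line and is listed at 0 in all 3 tagged libraries. S100a4 (2.92), Col6a3 (2.67), Col1a1 (2.07), Col6a1 (1.98), Prrx1 (1.92), Col5a2 (1.81), Thy1 (1.63), Lox (1.23) and Col6a2 (1.20) made up the rest. Tagln, an actin-binding gene of smooth muscle that epithelial cells also use, went the other way at 40.6, 38.9 and 38.3 against 293, 309 and 297 TPM (log2 −2.92), as did Cthrc1 (−2.35). Mainly through Tagln, the summed TPM of the list was 324 to 333 in the parental and 508 to 522 in the tagged line. Lum and Fap, also defining markers, were too low to test and are listed at 0 in the tagged libraries, with 0.20 to 0.37 and 0.19 to 0.50 TPM in the parental libraries. The part of feeder RNA in the other differences, Mgp, Tnc and Fbln2 included, was not tested.

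In the extracellular matrix and adhesion list of 23 genes 2 were called higher and 4 lower, with a median of −0.38. Tnc and Spp1, osteopontin (465, 458 and 454 against 211, 210 and 196 TPM, log2 1.16), were higher, and Cdh2, Col4a1, Col4a2 and the laminin gene Lama5 (−1.08) were lower. After centring, 5 genes of this list were called higher and 2 lower.

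Immediate early genes, which respond within minutes to growth factors and handling, went both ways. Of 24 tested 8 were called higher (33.3%) and 4 lower (16.7%), with a median of 0.51. Fosb read 55.2, 51.4 and 50.8 TPM in the parental and 0.546, 0.560 and 0.499 TPM in the tagged libraries (log2 5.68, SE 0.33, limma adjusted p = 5.18e-07), and Fos read 74.2, 71.6 and 73.3 against 5.64, 5.09 and 6.06 TPM (log2 3.60, limma adjusted p = 3.12e-08). Egr2 (2.44), Egr1, Nr4a1 (1.36), Egr3 (1.29), Ier2 (1.29) and Junb were the other members higher. Myc, the growth regulator, read 31.0, 28.8 and 31.2 against 130, 121 and 123 TPM (log2 −2.02, limma adjusted p = 2.85e-09), and Cyr61, a YAP target, differed by −1.52, Ier5 by −1.44 and Ier3 by −1.03.

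Several interferon and antigen processing genes were lower. Of 28 tested 0 were called higher and 7 lower (25%), with a median of −0.57. Oasl2, an interferon-stimulated gene, read 0.843, 0.624 and 0.500 TPM in the parental and 9.68, 8.21 and 9.58 TPM in the tagged libraries (log2 −3.07, limma adjusted p = 3.70e-08). Psmb8, an immunoproteasome subunit, differed by −2.80, Isg15 by −2.24, the peptide transporter Tap1 by −2.23, Zbp1 by −1.80, Ifi35 by −1.32 and Psmb9 by −1.19. The MHC class I genes H2-D1 (−0.95), B2m (−0.87) and H2-K1 (−0.79) did not reach 2-fold.

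Metabolic and stress lists differed less. In the glycolysis and hypoxia list of 31 genes 5 were called higher and 0 lower, with a median of 0.31, namely Pfkp (142, 143 and 142 against 46.6, 42.2 and 46.8 TPM, log2 1.65), Ndrg1 (1.64), Ankrd37 (1.50), the mitophagy receptor gene Bnip3 (1.38) and Aldoc (1.04). In the sterol and fatty acid synthesis list of 26 genes 1 was called higher, Insig1 (126, 127 and 124 against 58.4, 56.5 and 61.4 TPM, log2 1.09), and 22 were higher by the adjusted p at any size with 0 lower, with a median of 0.38. Of 24 amino acid response genes 0 were called in either direction, with a median of 0.31, 15 higher and 2 lower by the adjusted p at any size. Of 19 metallothionein and oxidative stress genes 2 were called higher, the zinc exporter gene Slc30a1 (1.49) and Sod2 (1.15), and 1 lower, Srxn1 (−1.22), with a median of −0.17. Of 23 p53 targets 0 were called higher and 2 lower, Perp (−1.83) and Plk2 (−1.53), with a median of −0.16. Of 26 cell cycle regulators 0 were called higher and 2 lower, the neighbouring inhibitor genes Cdkn2b (−1.94) and Cdkn2a (10.3, 10.3 and 10.4 against 30.4, 30.9 and 28.7 TPM, log2 −1.49), with a median of 0.22.

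Signs of RNA composition moved with the groups. Mitochondrial genes took 4.73% to 4.85% of TPM in the parental and 6.00% to 7.90% in the tagged libraries. Of the 15 listed mitochondrial mRNA and ribosomal RNA genes 0 were called in either direction, with a median of −0.51. By the adjusted p at any size 3 were higher and 12 lower. The ribosomal RNA genes mt-Rnr1 (0.70) and mt-Rnr2 (0.68) were among the 3 that were higher. Mitochondrial tRNA genes, mt-Te among them, are not in that list. Of 21 tested, 9 were called higher (42.9%, against 2.25% of all genes) and 2 lower, with a median of 0.88. RNA without a poly(A) tail was higher in the parental line, where 10 of 32 tested genes were called higher (31.3%, against 2.25%) and 0 lower, with a median of 0.55. Rpph1 read 10.5, 10.8 and 11.9 TPM in the parental and 0.137, 0.0862 and 0.544 TPM in the tagged libraries, and Rmrp, a further RNA polymerase III product, differed by 1.77. Replication-dependent histone genes such as Hist1h2ad (1.45) and Hist1h2af (1.41) were also in this list. Because these RNAs escape poly(A) selection, their TPM says how much passed the selection and not how much the cells held. By gene class, protein-coding genes gave 302 higher and 1289 lower of 13898, lincRNAs gave 10 higher and 72 lower of 437 (16.5% lower), and processed pseudogenes gave 11 higher and 43 lower of 1608 (2.67% lower).

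**Figure D3:**
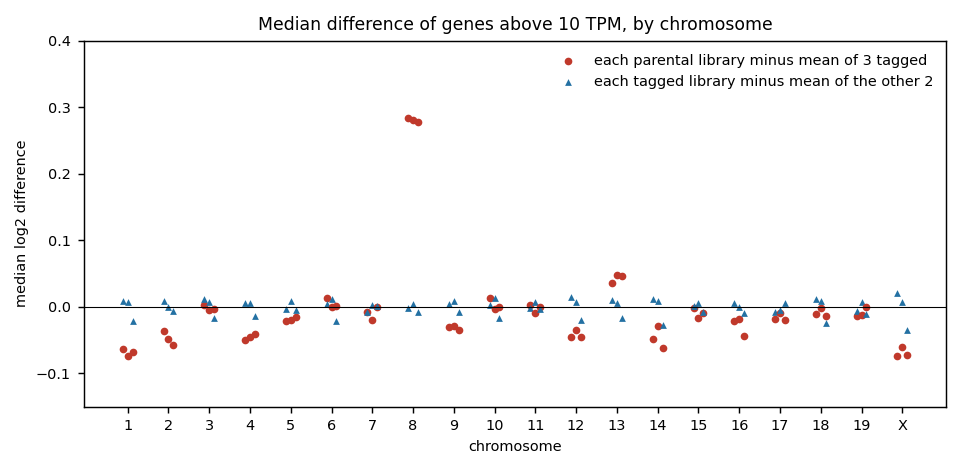
Median log2 difference over genes with a mean above 10 TPM (y axis) on each chromosome (x axis), for each parental library minus the tagged mean (red points) and, as a measure of spread, for each tagged library minus the mean of the other 2 (blue triangles). The 3 parental points of chromosome 8 lie at 0.28, above those of every other chromosome shown.

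Chromosome 8 was shifted as a whole. Its 859 tested genes had a median of 0.18, while the medians of the other autosomes ran from −0.12 to −0.05. Of these genes 62.3% were above 0 against 39.8% on the other autosomes. Among genes with a mean over 10 TPM, the 519 on chromosome 8 had a median of 0.28 against −0.07 to 0.04 on the other autosomes. The shift was spread along the chromosome. In windows of 20 Mb the 7 on chromosome 8 had medians of 0.06 to 0.25, and of 121 windows on other autosomes 1 was at or above the lowest of them. The gap between chromosome 8 and the other autosomes was 0.27 on the log2 scale (SD 0.009), and it was 0.28, 0.28 and 0.27 in the 3 parental libraries set against the tagged mean. The choice of this chromosome was made after the medians of all chromosomes were seen, so no test is given. On it 33 genes were called higher (3.84%, against 2.25% of all genes) and 47 lower (5.47%, against 9.15%). The other autosomes had 1.01% to 4.05% called higher and 5.86% to 10.9% called lower. Among the genes above, Klf2, Junb, Zfp42, Ankrd37 and Ier2, each more than 1 log2 unit higher, lie on chromosome 8. So do Acta1, Col4a1 and Col4a2, which were lower. Over the same genes above 10 TPM, the median of the neural progenitor libraries minus the tagged line was 0.008 on chromosome 8. It was −0.007 on the other autosomes together. No DNA measurement of the parental line was analysed here.

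The other window at that level was on chromosome 13 between 20 and 40 Mb. There 20 of the 22 genes called higher were Hist1 histone genes, and 9 genes were called lower. The 51 tested Hist1 genes had a median of 0.72, and the window without them had a median of −0.09. On the X chromosome 4 genes were called higher and 104 lower of 655 (15.9%), Klhl13, Pim2 and the Rhox genes among them.

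All 4 tested genes of the Y-linked list were called lower, with a median of −2.08. Eif2s3y, a translation initiation factor gene, read 13.8, 13.05 and 13.9 TPM in the parental and 74.0, 68.8 and 71.7 TPM in the tagged libraries (log2 −2.35, SE 0.04, limma adjusted p = 5.87e-10). Ddx3y, an RNA helicase gene, read 6.87, 6.63 and 6.53 against 21.6, 20.1 and 17.8 TPM (log2 −1.50), and Uty differed by −1.81. Uba1y, a ubiquitin-activating enzyme gene of the germline, read 0.232, 0.153 and 0.131 against 8.41, 8.85 and 8.67 TPM (log2 −3.77). Neural progenitor cells in DMSO, labelled V6.5 with no word on whether they carry the tag, had mean levels of 18.5 TPM for Ddx3y and 78.5 TPM for Eif2s3y, close to the tagged mESCs, whereas Uba1y was at 0.944 TPM there. Leaving out chromosomes 8 and Y, an alternative chosen after the data were seen, gave 360 genes higher and 1545 lower of 16588.

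MicroRNA genes of mESCs were looked at after their values had been seen, so they are described without a test. They are shown with the mature sequences, from RefSeq on GRCm38.p6, because the seed (bases 2 to 8, in capitals) groups genes from separate clusters. The first group shares AAGUGCU.
miR-302b-3p: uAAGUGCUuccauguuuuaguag
miR-302d-3p: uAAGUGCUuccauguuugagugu
miR-291a-3p: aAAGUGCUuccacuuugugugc
miR-294-3p: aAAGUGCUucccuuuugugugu
miR-295-3p: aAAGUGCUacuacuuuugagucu
Of the second group, which shares AUUGCAC, the genes looked at lie on chromosome 3 (Mir367) and on the X chromosome (Mir363 and Mir92-2).
miR-367-3p: aAUUGCACuuuagcaaugguga
miR-363-3p: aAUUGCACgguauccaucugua
miR-92a-3p: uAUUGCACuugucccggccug

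The 3 genes looked at in the second seed group were lower in the parental line, whereas those of the first group went both ways or overlapped. Other genes that may carry either seed were not looked up. Mir302a, Mir302d and Mir367 are listed at 0 in all 3 parental libraries and read 4.05, 3.82 and 7.16 TPM, 4.79, 3.98 and 5.80 TPM, and 5.51, 5.55 and 9.26 TPM in the tagged libraries. Mir302b was at 0, 0.109 and 0 against 4.06, 3.35 and 5.21 TPM, and Mir302c was at 0, 0.446 and 0 against 5.22, 2.17 and 6.08 TPM. The cluster is transcribed towards the epiblast stage, and it lies within Larp7 on the opposite strand, which read 91.5, 92.1 and 91.0 against 118, 118 and 116 TPM. Mir294 and Mir295, of the naive mESC cluster on chromosome 7, overlapped between the lines at 12.9, 11.3 and 16.9 against 12.7, 10.7 and 30.8 TPM, and at 20.4, 19.8 and 25.6 against 34.0, 23.7 and 44.0 TPM. Mir291a was higher in the parental line at 1.66, 2.18 and 5.35 against 0.738, 0.439 and 0.997 TPM. On the X chromosome, Mir363 read 2.88, 4.98 and 3.29 against 32.6, 24.1 and 32.5 TPM, and Mir92-2 read 1.64, 1.19 and 0.654 against 13.5, 10.6 and 10.2 TPM. Reads in these genes come from longer transcripts, and mature microRNAs were not measured.

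The same genes were then placed beside the degradation experiment, in which the tagged line received 500 nM dTAG-13. These series share the DMSO libraries with the comparison above, so only levels are set side by side. Mest had a mean of 64.3 TPM in the parental line and 0.442, 0.369, 0.324, 5.97 and 62.9 TPM in the tagged line in DMSO and at 2, 6, 24 and 96 h of dTAG-13, so the 96 h mean came back to near the parental one. Igf2 moved away from the parental 2.05 TPM, from 124 TPM in DMSO to 170 at 24 h and 924 at 96 h. Klf4, at 329 TPM in the parental line, was 44.1 TPM in DMSO and 11.6 TPM at 24 h, and Krt8, at 13.5 TPM in the parental line, was 410 TPM in DMSO, 269 TPM at 24 h and 2843 TPM at 96 h.

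Other genes differed in how they moved with dTAG-13. Mgp (15.7 TPM in the parental line) stayed at or under 0.163 TPM at each time, whereas Col1a2 (23.5 TPM in the parental line) was 2.56 TPM in DMSO and 50.6 TPM at 96 h. Zscan4d, at 2.68 TPM in the parental line, was 36.2 TPM in DMSO, 28.7 TPM at 24 h and 58.2 TPM at 96 h. Ddx3y, at 6.68 TPM in the parental line, kept to 19.1 to 21.4 TPM through the time course. The other Y-linked genes tested were less steady. Uba1y, at 0.172 TPM in the parental line, was 8.64 TPM in DMSO, 15.6 TPM at 24 h and 15.0 TPM at 96 h. In the same order, Eif2s3y was 71.5, 94.6 and 68.8 TPM, and Uty was 15.1, 18.2 and 13.5 TPM. For chromosome 8, the median of the dTAG-13 groups minus DMSO was −0.07 to 0.00.

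**Figure D4:**
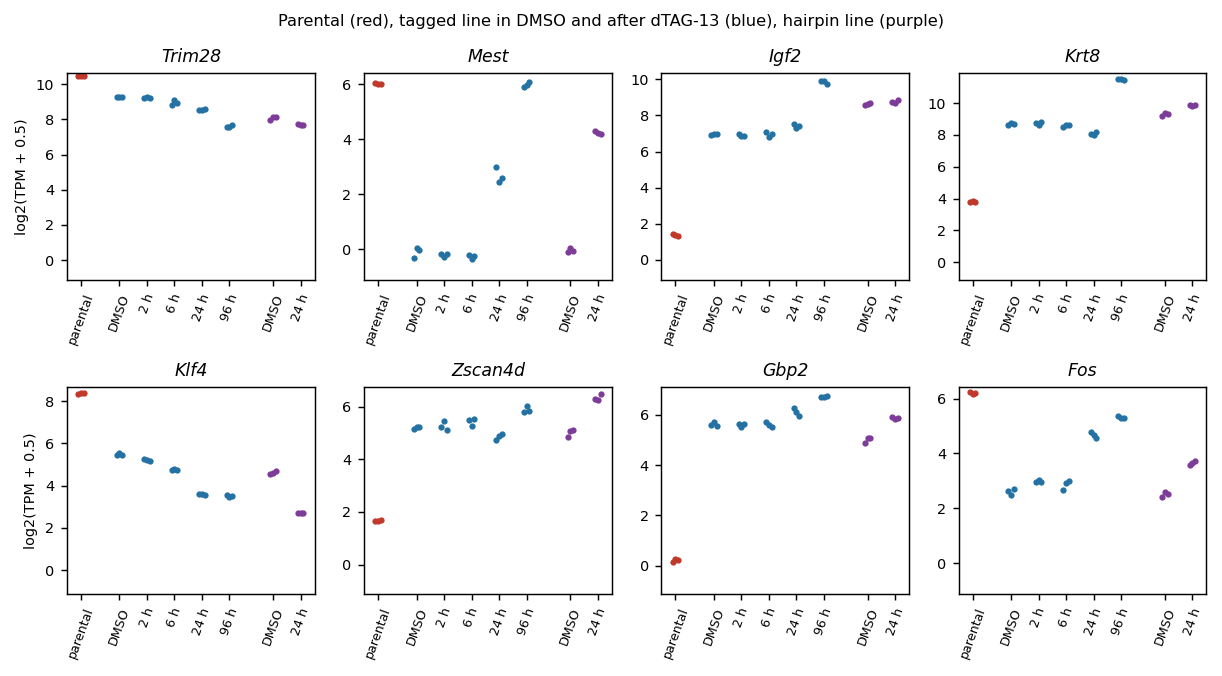
Level of 8 genes in each library, as log2(TPM + 0.5), in the parental line (red), in the tagged line (blue; DMSO, then dTAG-13 for 2, 6, 24 and 96 h), and in the hairpin line described next (purple; DMSO, then dTAG-13 for 24 h). Mest at 96 h reaches 62.9 TPM, near the parental 64.3 TPM, while Igf2, Krt8 and Klf4 at 96 h lie farther from the parental level than in DMSO.

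A line derived from the tagged mESCs that carries hairpins against ERVs shares no library with this comparison. Its growth notes are those of the parental line, its RNA was prepared as total RNA, and it was compared after 24 h in dTAG-13 or DMSO. The treatment notes of both groups name doxycycline, which induces the hairpins, although only a further group that was not used here is labelled Dox, so whether the hairpins were on in these groups is not certain. In it, 1.91% of the 15037 genes tested in both comparisons rose with dTAG-13 and 1.45% fell. Of the 1521 genes called lower in the parental line and tested there, 164 rose (10.8%), which is 57.1% of the 287 that rose, and 31 fell (2.04%, or 14.2% of the 218 that fell). Their median change was 0.40, against 0.14 for all genes. Of the 305 called higher in the parental line, 5 rose (1.64%) and 35 fell (11.5%, or 16.1% of those that fell), with a median of −0.11. The shares of 10.8% that rose and 11.5% that fell stand beside the backgrounds of 1.91% and 1.45%.

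Single genes show the levels behind these counts. In the hairpin line in DMSO, Krt8 was at 634 TPM, Igf2 at 395 TPM, Klf4 at 24.1 TPM, Zscan4d at 31.7 TPM, Gbp2 at 32.0 TPM, Mest at 0.470 TPM and Fos at 5.22 TPM, each nearer to the tagged DMSO mean than to the parental mean. Other genes were nearer to the parental mean. Beside the parental and then the tagged mean, Col1a2 was at 23.6 TPM (23.5 and 2.56 TPM) and Col3a1 at 5.37 TPM (7.53 and 0.539 TPM). Meg3 was at 210 TPM (227 and 663 TPM), Rian at 599 TPM (453 and 1174 TPM) and Pou3f1 at 26.9 TPM (9.98 and 85.6 TPM). Mgp is listed at 0 in all of its libraries. With dTAG-13 for 24 h the means were 18.3 TPM for Mest, 81.1 TPM for Zscan4d and 6.07 TPM for Klf4. Levels in polyadenylated and total RNA can be compared only roughly.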

How the data were processed

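RNA-seq of 3 parental V6.5, 3 TRIM28-FKBP (DMSO) and 3 neural progenitor cell libraries was used, from polyadenylated RNA and a stranded mRNA kit. Per the submitters' processing notes the tools were cutadapt 2.4, STAR 2.7.5a and StringTie 2.0.6 on mm10. The deposited TPM and FPKM values per gene came from StringTie tables, 1 per library, and hold no counts. Relative depth was therefore estimated from the deposited coverage summed over all genes, divided by the median of the RNA-seq libraries. The strand setting of the counting is not given in the sources used here. TT-SLAM and ChIP samples were not used here.

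Rows that shared a gene ID were summed, giving 54446 IDs. Genes at 1 TPM or more in at least 3 of the 9 libraries were tested on log2(TPM + 0.5) with limma 3.58.1 in R 4.3.3 (trend, all 9 libraries for the spread, parental minus tagged), with Benjamini-Hochberg adjustment, and were called at an adjusted p under 0.05 and more than 2-fold. The procedure was tested on simulated data. The hairpin line and the dTAG-13 time course were fitted separately in the same way.

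Named were the 12 largest rises and 12 largest falls in log2 among called genes without overlap and with a mean of at least 5 TPM in the higher group, the 8 largest of each in TPM, Trim28 with the genes within 250 kb, and list members. The comparison and the 31 gene lists were chosen with earlier results of these data known. MicroRNA genes and chromosome 8 were chosen after their values were seen. Coordinates and genes are of GRCm38, sequences are from RefSeq (GRCm38.p6) and the study's guide list, and 14 of 15 microRNA genes sought had a mature sequence. Alternatives changed the pseudocount, the filter, the unit, the centring, the libraries in the fit and the replicate block. A few list members and neighbours of Trim28 that enter the counts are not reported here by name.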

Additional observations from a re-analysis of the deposited data

How the results depend on the processing

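The main counts were 393 genes higher and 1598 lower. With each library centred on its median gene they were 624 and 1161, so the share of higher calls rose. With a mean of at least 5 TPM they were 213 and 599, and with FPKM in place of TPM 255 and 890. In the feeder list the called genes fell from 15 to 8 with a mean of at least 5 TPM. The chromosome 8 gap, 0.27, was 0.29 with a pseudocount of 0.1, 0.25 with a pseudocount of 1 and 0.30 with a mean of at least 5 TPM. Leaving out 1 library at a time gave 335 to 403 genes higher, 1198 to 1608 lower, Trim28 at 1.15 to 1.17, 11 to 12 naive, 16 to 17 imprinted and 12 to 15 feeder genes called, and a chromosome 8 gap of 0.26 to 0.27. A neighbour of Trim28 changed sign in 6 cases, none of them called: after centring Zfp110 was 0.038, Chmp2a 0.098 and Ube2m 0.17, Rnf225 was −0.061 without tagged replicate 2 and −0.0055 without parental replicate 3 (0.10 at most), and Ube2m was 2.4e-05 without parental replicate 1 and −0.044 without parental replicate 3. With the replicate number as a block the counts were 394 and 1603. The deviations of same-numbered libraries correlated by −0.01 to 0.03, so the samples share only a number. Pseudocounts of 0.1 and 1 gave 526 and 304 genes higher and 2215 and 1201 lower, no filter gave 418 and 1806, and the 6 libraries alone gave 389 and 1544. Fewer genes are tested with the higher minimum. Leaving out a library also removes from the test every gene that reaches 1 TPM only in the 3 libraries of that group. Genes called lower numbered 1198 to 1279 without a tagged library and 1588 to 1608 without a parental one. Genes called higher numbered 400 to 403 and 335 to 348 in the same order. How much of these moves comes from the filter, and the cause of the other moves, was not tested. Without chromosomes 8 and Y, an alternative added after the data were seen, the counts were 360 and 1545. For the named genes, over all alternatives together, 3043 values kept their direction and side of the threshold, 45 no longer passed it and 1 newly passed it. TPM hold no counts, so no counting error could be given for low genes.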
